A study of Mus musculus with 6 samples.

Results

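The Myc locus was examined as 100 accessible regions, out of 81315 in the genome, that lay between 500 kb before and 2 Mb after the start of Myc on chromosome 15. The regions were obtained by merging ATAC-seq peaks of naive CD4 T cells and of Th17 cultures at 48 h and 72 h wherever peaks shared at least 1 bp, and a region belonged to the locus when its middle lay in that window. Position alone chose them. ATAC-seq marks open chromatin by where the Tn5 transposase inserts adapters. The cells were wild-type C57BL/6 CD4+ T cells, either naive and untreated or cultured for 48 h or 72 h with plate-bound anti-CD3ε at 0.25 µg/mL and anti-CD28 at 1 µg/mL, TGF-β at 0.1 ng/mL and IL-6 at 20 ng/mL. Each of the 3 conditions had 2 libraries of 10000 cells but a single peak list, so no difference below has a replicate check and none has a p-value. No source used here gives the age of the mice or says whether animals were pooled.

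MYC is a basic helix-loop-helix leucine zipper factor that binds E-box sequences as a dimer with MAX. In T cells it is induced by antigen receptor and cytokine signals and drives the growth, metabolism and division that precede effector differentiation. The gene stands almost alone. A long desert of protein-coding genes follows it, and that desert is known to carry enhancers that act on Myc over long distances, different ones in different blood cells. The first part of the desert is the body of Pvt1, a long noncoding RNA gene whose own body holds regulatory elements of Myc.

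The RefSeq table of GRCm38.p6 places Myc on chromosome 15 from 61985341 to 61990361, a body of 5021 bp, and the window from 61485341 to 63985341. Myc is transcribed toward higher coordinates, so "after" below means higher coordinates. Of the 29 annotated genes in the window, 6 encode proteins and 10 are long noncoding RNAs. The other protein-coding genes are the gasdermin genes Gsdmc, Gsdmc2, Gsdmc3 and Gsdmc4, which encode pore-forming proteins, and Cyrib, which encodes a binding partner of RAC1. The nearest of them, Gsdmc, begins 1790.6 kb after the Myc start.

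A region is called gained between a pair of lists when the later list has it and the earlier one does not, and lost in the opposite case. An absent peak means only that the deposited list holds none there. In bulk lists, opening in fewer cells and weaker opening per cell cannot be told apart. The depth behind the lists is unknown, and peak widths and scores are the authors' values. Intervals of shares are exact 95% Clopper-Pearson binomial intervals and cover counting error only, and neighbouring regions are not independent draws. Running numbers in the peak names keep the order of position, and some numbers are absent: 7 in the naive list, 4 in the 48 h list and 8 in the 72 h list within the window (11.5%, 7.27% and 11.3% of its numbers), beside 7.7%, 10.2% and 7.42% over the whole lists. The peaks behind those numbers were not analysed here. The labelled cell types were reflected in the lists, with 0 naive, 3 48 h and 5 72 h regions at Il17a and 27, 9 and 15 at Lef1. Csf1r, Lyz2 and Adgre1, markers of myeloid cells, and Ms4a1, a B cell marker, had no region in any list, whereas Itgam, another myeloid marker, had 7 regions in naive cells and 1 at each time. The B cell markers Cd79a and Pax5 had between 1 and 5 regions in each list. All 4 markers of CD8 T cells and NK cells also had regions, with 4 gained and 4 lost at 48 h and 3 and 4 at 72 h. The part of other cells in the results below was not tested.

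Of the 100 regions, 54 were present in naive cells, 47 at 48 h and 63 at 72 h. Only 14 were in all 3 lists, 34 were in naive cells only and 30 were shared by the Th17 times and missing from naive cells. A further 13 appeared at 72 h alone and 3 at 48 h alone. Naive cells shared 6 with the 72 h list alone and 0 with the 48 h list alone. As the map of the window shows, naive-only regions were spread over the whole window, with 7 before the Myc start, 18 within 1 Mb after it and 9 further on. Of the 30 regions shared by the Th17 times alone, 0 lay before the start, 29 within 1 Mb after it and 1 further on.

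**Figure D1:**
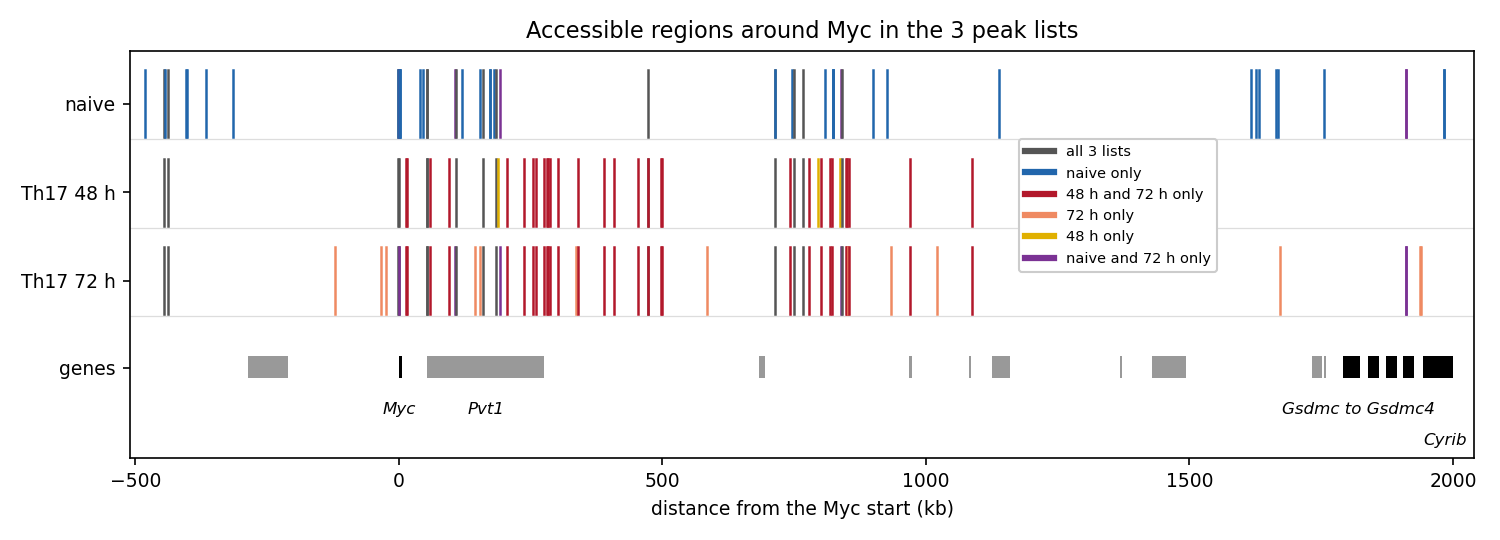
Each vertical line is 1 accessible region, drawn in the row of every peak list that holds it, at its distance from the Myc start in kb, with colours for the combination of lists. Protein-coding genes are black boxes and long noncoding RNA genes grey boxes. Between 250 and 500 kb after the start the naive row holds 1 region, the 48 h row 15 and the 72 h row 16, while beyond 1086.8 kb the 48 h row is empty.

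At the Myc gene itself, within 10 kb of the gene body, there were 7 regions in naive cells, 4 at 48 h and 5 at 72 h. The larger naive count depended on narrow peaks: with the 40624 widest peaks of each list the counts were 4, 4 and 5, and with peaks from each list's median width up they were 3, 2 and 3. The 48 h list has 40624 peaks, so the first setting left it whole and removed peaks only from the other lists. The 7 naive regions formed a block of 4.89 kb over the upstream flank and the first part of the gene. The upstream edge of the block, chr15:61983205-61983631, was present in all 3 lists with peak widths of 250 bp in naive cells, 127 bp at 48 h and 352 bp at 72 h, and with scores of 66 at 48 h and 103 at 72 h. The region that ends just before the Myc start, chr15:61984925-61985315, was also in all 3 lists, with nearly equal widths of 348, 363 and 343 bp and scores of 61 at 48 h and 35 at 72 h. The former is at the 42.8th percentile of its list and the latter at the 7.24th percentile of the 72 h list, whose lowest score is 30.

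The region over the first bases of the gene, chr15:61985372-61985750, was 379 bp wide in naive cells, was missing from the 48 h list and was 231 bp wide at 72 h with a score of 53. Further into the gene, 3 regions were in naive cells only. The widest, chr15:61986803-61987488, spanned 686 bp and was the widest naive-only region of the whole window. The other 2, at 1.1 kb and 2.7 kb after the start, were 105 and 118 bp wide, and a naive-only region of 139 bp lay 0.8 kb before the start. The 48 h list lacks 2 running numbers and the 72 h list lacks 1 between their last peak at the Myc start and their next peak past the gene, so up to 2 peaks at 48 h and 1 at 72 h that were not analysed here could lie in that stretch. Their part in the losses inside Myc was not tested.

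Past the end of the gene the order was the opposite. The region chr15:61998760-61999140, 13.6 kb after the start, was 257 bp wide at 48 h and 381 bp at 72 h with scores of 79 and 107, and naive cells had no peak there. Its neighbour at 14.5 kb, chr15:61999749-61999968, had scores of 30 at 48 h and 50 at 72 h and was likewise absent from naive cells. A score of 30 is the lowest in the 48 h list.

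**Figure D2:**
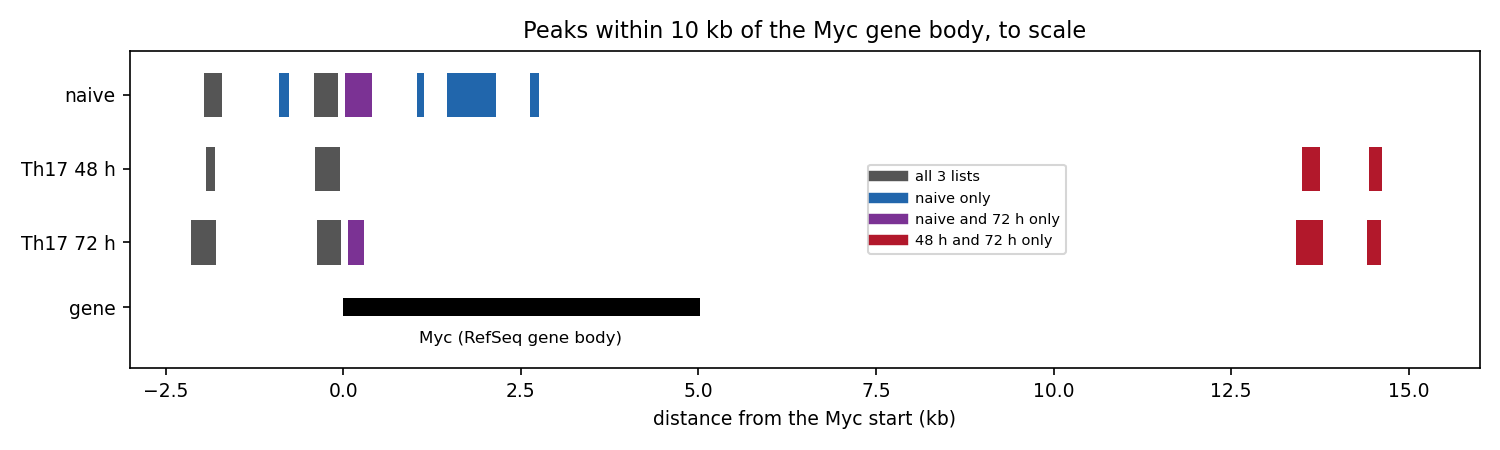
Peaks within 10 kb of the Myc gene body are drawn to scale in each list, by distance from the Myc start in kb, with the RefSeq gene body as a black box. The naive row has 7 peaks from upstream of the start into the gene, the 48 h row 2 and the 72 h row 3 in the same stretch, and only the 48 h and 72 h rows have peaks near 13.6 and 14.5 kb.

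Early differences at the locus are given by naive cells against 48 h of Th17 culture. In the window, 33 of the 47 regions of the 48 h list were gained, which is 70.2% (95% interval 55.1 to 82.7%), against 38.8% over all regions. Of the 54 naive regions, 40 were lost (74.1%, 60.3 to 85%), against 55.9% over all regions. High turnover was shared by regions far from genes. The window is not limited to such regions and includes those at and near Myc. Among the 4520 regions at least 100 kb from any protein-coding gene outside the window, 64.9% (62.5 to 67.3%) of the 48 h regions were gained and 78.5% (76.8 to 80.1%) of the naive regions were lost, and the window's intervals include both values. The excess of losses over gains at 48 h turned with the 40624 widest peaks of each list, to 37 gained and 27 lost. That setting left the 48 h list, of 40624 peaks, whole and removed only naive peaks here, which favours gains by construction. With peaks from each list's median width up, there were 21 gained and 20 lost.

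At 72 h, 43 of the 63 regions were gained relative to naive cells (68.3%, 55.3 to 79.4%), against 49.2% over all regions, and 34 of the 54 naive regions were lost (63%, 48.7 to 75.7%), against 49.2% over all regions as well. Regions far from genes outside the window had 71.6% gained and 70.6% lost, inside the window's intervals. With only 48 h and 72 h peaks of a score of at least 50 there were 32 gained and 41 lost, which reverses the larger side. The naive list has no scores, so this setting left it whole, which favours losses by construction. The comparison with 72 h uses the same naive list as that with 48 h, so a peak missed in naive cells counts in both.

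Between 48 h and 72 h the locus lost few regions. Of the 47 regions at 48 h, 3 were absent at 72 h, which is 6.38% (1.34 to 17.5%), against 15.9% over all regions and 19.9% (17.9 to 22%) of those far from genes. Of the 63 regions at 72 h, 19 were absent at 48 h (30.2%, 19.2 to 43%), against 39.4% over all regions and 52.5% (50.5 to 54.4%) of those far from genes. The 3 regions at 48 h only lay 187.7, 795.6 and 836.5 kb after the start, were 184, 136 and 242 bp wide and had scores of 59, 39 and 31, all below the 48 h list's median of 69. The window's interval of losses includes the share over all regions and lies below that of regions far from genes, and so does its interval of gains. With the widest 40624 peaks of each list, or with scores of at least 50, 8 regions were lost between the times. The former setting removed peaks from the 72 h list and none from the 48 h list, which favours losses by construction.

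The class whose share differed most from that over all regions was the one gained by 48 h and kept at 72 h. It made up 30% of the window (21.2 to 40%), 13.1% of all regions, 10.6% (9.62 to 11.7%) of the rest of chromosome 15 and 16.8% (15.7 to 17.9%) of the regions far from genes. Regions in all 3 lists made up 14% (7.87 to 22.4%), below the 25.6% of all regions and near the 10.1% of regions far from genes. Naive-only regions, at 34% (24.8 to 44.2%), and 72 h only regions, at 13% (7.11 to 21.2%), had intervals that include the shares over all regions, 28.8% and 18.3%. The window held 21.6 naive, 18.8 48 h and 25.2 72 h regions per Mb, against 23.7, 14.6 and 20.3 on the rest of chromosome 15. The naive value was slightly below that of the rest, and both Th17 values were above it. These densities rest on 54, 47 and 63 regions, have no interval and were not tested.

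**Figure D3:**
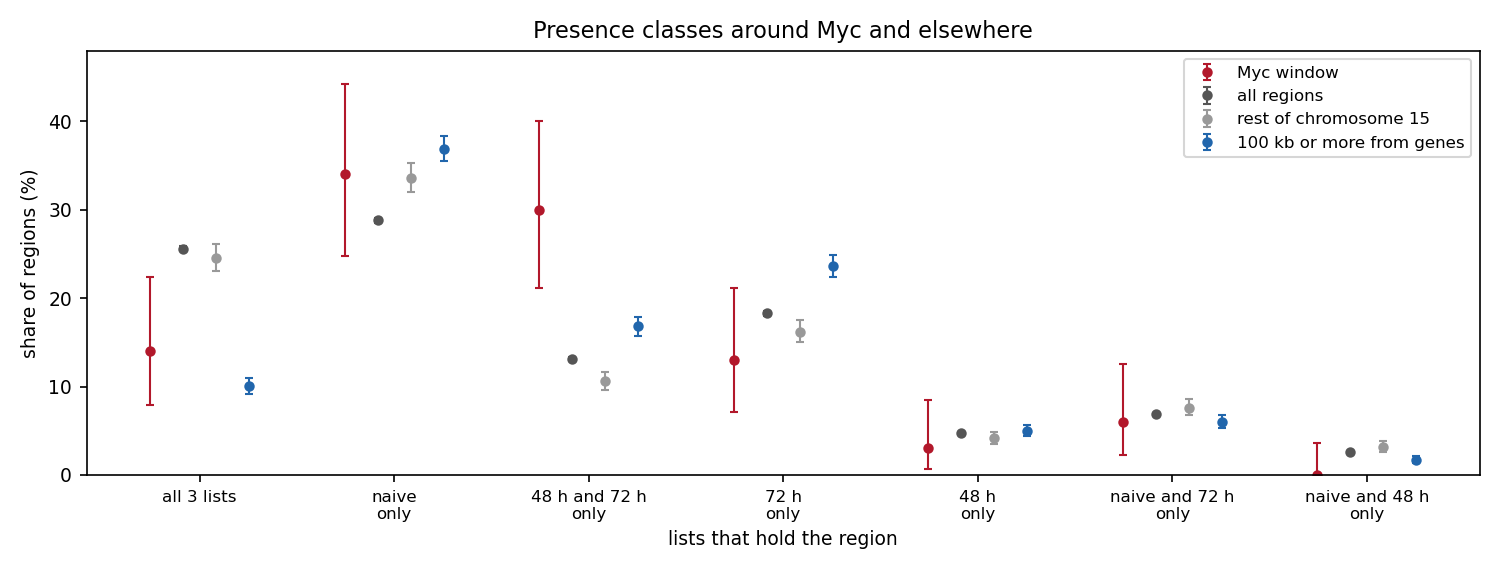
Points give the share of regions in percent for each combination of lists, in the Myc window (100 regions), over all regions (81315), on the rest of chromosome 15 (3375) and among regions at least 100 kb from protein-coding genes outside the window (4520). Bars are exact 95% binomial intervals, for counting error only. The window stands at 30% for regions at 48 h and 72 h only, where the other sets stand at 10.6 to 16.8%.

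Along the window the lists differed most between 250 and 500 kb after the Myc start. That interval spans the far end of Pvt1 and the desert behind it and held 16 regions, of which 1 was in naive cells, 15 at 48 h and 16 at 72 h. With peaks from each list's median width up, the counts were 1, 9 and 10. The interval was singled out by these same counts. Absence from naive cells held for 38.8% of all 48 h regions and 49.2% of all 72 h regions, and for 64.9% and 71.6% of those far from genes. In the neighbouring interval from 0 to 250 kb, naive cells had 18 regions, the 48 h list 12 and the 72 h list 16. From 250 to 500 kb before the start naive cells had 8 regions and each Th17 list 2.

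**Figure D4:**
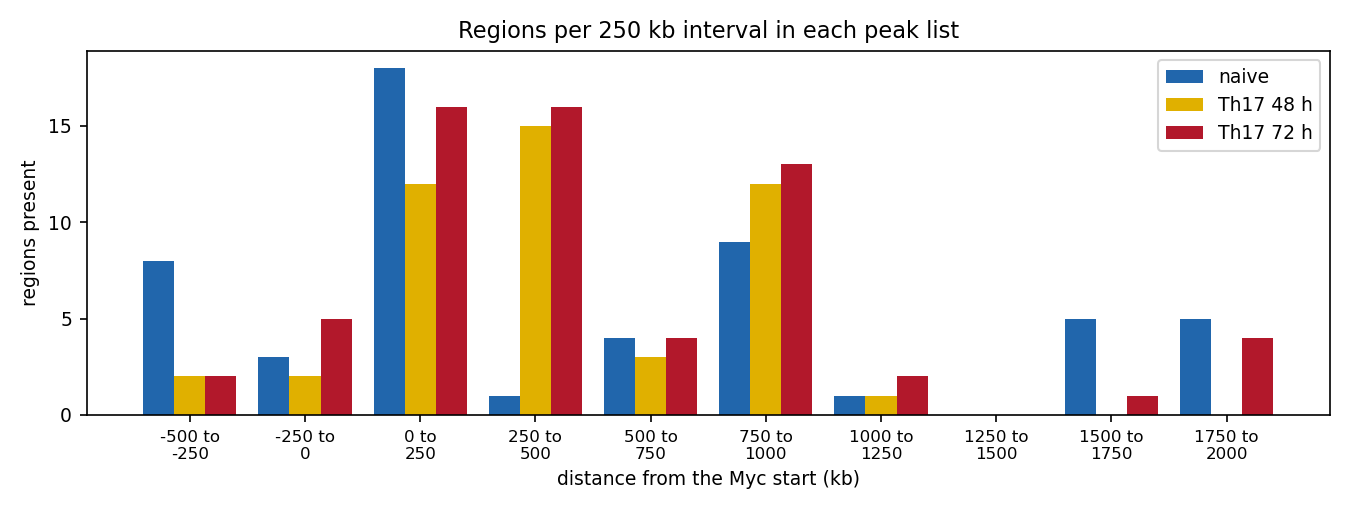
Bars give the number of regions present in each peak list per 250 kb interval of distance from the Myc start, on an axis from 0. From 250 to 500 kb the bars are 1, 15 and 16 for naive cells, 48 h and 72 h, and from 1250 to 1500 kb all lists are at 0.

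The longest run of neighbours without a naive peak crossed this interval. From 204.7 to 453.7 kb after the start, over 250 kb (chr15:62189605-62439264), 14 regions in a row were absent from naive cells, of which 13 were present at both 48 h and 72 h and 1 at 72 h only. The run was picked for lacking naive peaks, and absence from naive cells was common elsewhere, at 49.2% of all 72 h regions and 71.6% of those far from genes. Its 72 h scores ran from 46 to 198. The naive peaks that flank this stretch lie 192.6 and 472.0 kb after the start, and 1 running number is absent from the naive list between them, so at most 1 naive peak that was not analysed here could lie there.

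Pvt1 runs on chromosome 15 from 62037986 to 62260215, a body of 222 kb, and held 20 regions. Naive cells had 11 of them, the 48 h list 11 and the 72 h list 14. The last naive region of Pvt1 lay 192.6 kb after the Myc start, and up to it the 48 h list had 7 regions and the 72 h list 10. The 4 regions after it, from 204.7 to 260.2 kb, belong to the run without naive peaks and were all present at both Th17 times.

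At the lower end of Pvt1, chr15:62037675-62038124 was in all 3 lists with similar widths of 450 bp in naive cells, 393 bp at 48 h and 375 bp at 72 h, and scores of 41 and 85. Its neighbour chr15:62038399-62039221 was 823 bp wide in naive cells and 148 and 100 bp at 48 h and 72 h. A little further, chr15:62043696-62044112, 58.6 kb after the Myc start, was absent from naive cells and had the highest 72 h score of the gained regions, 200 (87.2th percentile of the list), with a 48 h score of 87 and widths of 405 and 387 bp.

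Other gained regions lay along and beyond Pvt1. The region at 94.2 kb, chr15:62079396-62079708, scored 87 at 48 h and 159 at 72 h. The region at 204.7 kb, chr15:62189605-62190570, was made of 2 peaks at 48 h, the higher with a score of 148, and of 1 peak of 903 bp at 72 h with a score of 69. At 254.8 kb, chr15:62240026-62240325 scored 148 and 147 at the 2 times, and at 260.2 kb, chr15:62245320-62245732 scored 105 and 198. These scores come from separate lists with no stated common scale, so a rise from 48 h to 72 h cannot be read from them. Past Pvt1, 4 gained regions stood together between 276.3 and 286.3 kb, all present at both times. Their scores were 59, 43, 107 and 58 at 48 h and 95, 75, 140 and 114 at 72 h. The median scores of the 48 h and 72 h lists were 69 and 76. The region at 389.4 kb, chr15:62374559-62374997, scored 79 and 162.

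**Figure D5:**
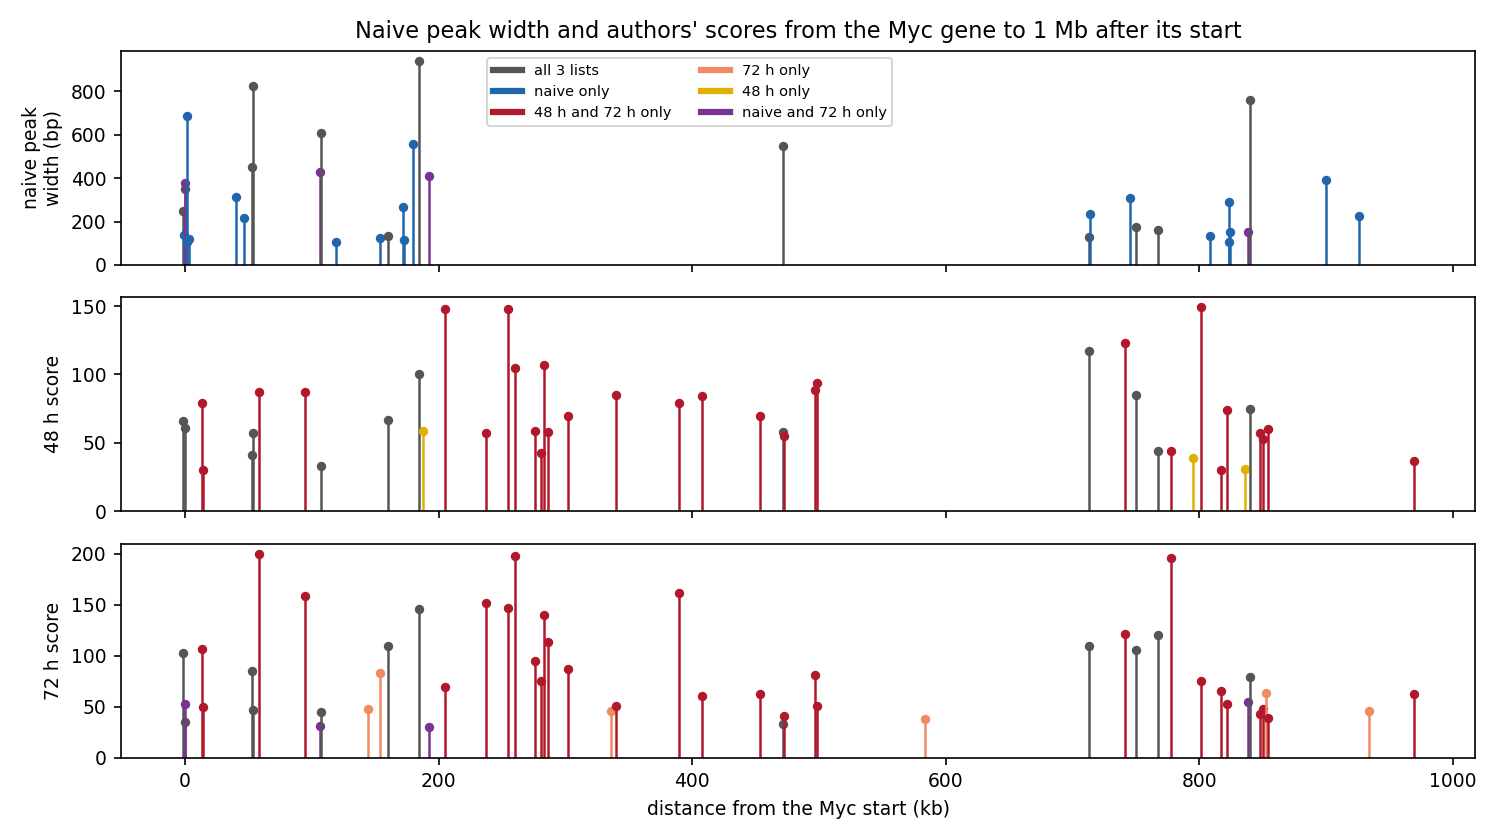
From 10 kb before to 1000 kb after the Myc start, the panels show the naive peak width in bp, the authors' 48 h score and the authors' 72 h score of each region, by distance in kb and with the colours of the combination of lists. Scores belong to their own list and are not on a shared scale. Between 204.7 and 453.7 kb the naive panel is empty while the 48 h and 72 h panels hold 13 and 14 regions.

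The 14 regions in all 3 lists had naive widths from 130 to 940 bp with a median of 328.5 bp. The same class had 521 bp over all regions and 389 bp among regions far from genes. By merged span the widest was chr15:62824748-62825740 (993 bp), 839.9 kb after the start, with 762 bp in naive cells, 598 bp at 48 h and 637 bp at 72 h. Next came chr15:62169183-62170122 (940 bp) inside Pvt1, 184.3 kb after the start, with 940, 808 and 632 bp and scores of 100 and 146. The region at 107.6 kb, chr15:62092563-62093269, by contrast had 607 bp in naive cells and only 109 and 159 bp in the cultures, and the region at 750.0 kb, chr15:62734939-62735736, had 176 bp in naive cells and 653 and 738 bp in the cultures. Of the 20 regions shared by naive cells and 72 h, 11 were narrower at 72 h (55%), with a median width ratio of 0.911, against 68.7% and 0.861 over all shared regions. The highest 72 h score of the whole window, 218 (89.5th percentile), belonged to a region in all 3 lists 438.5 kb before the start, chr15:61546654-61546982, with widths of 309, 282 and 329 bp.

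A second group of regions lay between 713.4 and 854.3 kb after the start, in the desert between long noncoding RNA genes. It mixed classes closely. The largest run of neighbours at most 10 kb apart, 8 regions over 28.7 kb (chr15:62780881-62809597), held 4 naive-only regions, 3 at 48 h and 72 h only and 1 at 48 h only, and none in all 3 lists. In it, chr15:62786390-62786625 had the highest 48 h score of the window, 149, and a 72 h score of 75, and 3 naive-only regions of 108, 292 and 154 bp stood side by side at 823.3, 823.8 and 824.2 kb. The region at 778.1 kb, chr15:62763223-62763675, scored 44 at 48 h, at the 20.9th percentile of its list, and 196 at 72 h, at the 86.6th. At 741.5 kb, chr15:62726645-62727012 scored 123 and 121, and at 713.4 kb, chr15:62698483-62698908, present in all 3 lists, scored 117 and 110.

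The last 48 h region lay 1086.8 kb after the start, chr15:63072042-63072229, with a score of 44. By that choice of limit no region beyond it was in the 48 h list, and 46% of all regions and 33.5% of those far from genes were. The 14 regions beyond it comprised 9 naive-only regions, 3 at 72 h only and 2 shared by naive cells and 72 h. The widest empty stretch of the window lay here, with 478 kb between the regions at 1138.1 and 1616.4 kb free of peaks in all lists. Between 1616.4 and 1667.4 kb, 5 naive-only regions followed each other, the widest of them chr15:63616912-63617363 with 452 bp, and just past them a 72 h only region, chr15:63657529-63657650, had a score of 75. This end of the desert is where an enhancer cluster of blood stem and progenitor cells is known, but no region here was matched to a named enhancer.

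The 72 h only regions were weak. Their 13 scores ran from 31 to 83 with a median of 50, against a median of 51 for 72 h only regions over the genome. The highest, 83, was at chr15:62138978-62139313 inside Pvt1, and the next were 75 at 1672.2 kb, 72 at 120.6 kb before and 1021.3 kb after the start, and 64 at 853.1 kb. The 30 regions at 48 h and 72 h only had a median 72 h score of 75, below the 91 of the same class over the genome and the 98 of those far from genes. Their median 48 h score, 72, was not below that class, which had 64.5 over the genome and 71 far from genes. Of the 43 regions gained at 72 h, 15 were above the list's median score of 76 and 11 were at or below its lower quartile of 48.

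Naive-only regions were narrower than those kept. Their median naive width was 227.5 bp (100 to 686 bp, 34 regions), against 328.5 bp (130 to 940 bp, 20 regions) for naive regions kept at 72 h, and the same order held over all regions, at 193 and 439 bp. Beside the 686 bp region in Myc, the widest were chr15:61540816-61541409 with 594 bp and chr15:61670563-61671049 with 487 bp, 444.2 and 314.5 kb before the start, and chr15:62164710-62165268 with 559 bp inside Pvt1.

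The protein-coding genes at the far end had few regions. No region lay within 10 kb of Gsdmc, Gsdmc2 or Gsdmc3. Gsdmc4 held 2 regions, chr15:63895569-63895856 and chr15:63896060-63896307, both in naive cells (202 and 248 bp wide) and at 72 h (scores of 55 and 63) and missing at 48 h. The part of Cyrib inside the window held 2 naive-only regions, at 1982.6 and 1983.9 kb.

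RefSeq promoter sequences (GRCm38.p6, 250 bases before to 50 after the gene start) were given for 9 of the 29 genes, and no region overlapped any of them. Myc and Pvt1 are not among the 9. Gained regions came nearest to the starts of the long noncoding RNA genes Gm30113 and Gm41334, whose promoters are shown for that reason. The region chr15:62954419-62954779, present at 48 h (score 37) and 72 h (score 63) only, begins 203 bp after the start of Gm30113, and the last 48 h region of the window begins 1278 bp upstream of the start of Gm41334. The first sequence is chr15:62953966-62954265 on the plus strand and the second is chr15:63070715-63071014 on the minus strand, each written 5′ to 3′, with capitals for a match to 1 of 11 motifs searched on both strands.

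Gm30113: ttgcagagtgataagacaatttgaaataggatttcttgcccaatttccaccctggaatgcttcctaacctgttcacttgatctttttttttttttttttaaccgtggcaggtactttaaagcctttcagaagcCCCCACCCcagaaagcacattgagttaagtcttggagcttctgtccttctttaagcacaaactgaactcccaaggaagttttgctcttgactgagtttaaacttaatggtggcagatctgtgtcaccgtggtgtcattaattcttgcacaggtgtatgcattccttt
Gm41334: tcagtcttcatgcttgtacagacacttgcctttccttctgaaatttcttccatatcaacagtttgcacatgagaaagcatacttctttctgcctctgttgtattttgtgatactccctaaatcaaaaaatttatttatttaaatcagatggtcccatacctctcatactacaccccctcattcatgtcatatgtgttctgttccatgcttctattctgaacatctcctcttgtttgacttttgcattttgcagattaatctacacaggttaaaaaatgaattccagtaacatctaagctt

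The only match was a KLF motif (CCNCACCC) in the Gm30113 promoter, written CCCCACCC, which 16.6% of the 32851 RefSeq promoters also hold at least once on either strand. Neither promoter held the other motifs, which were AP-1 (TGANTCA, 7.81% of promoters), ETS (CCGGAAG, 8.86%), RUNX (TGTGGT, 16.8%), TCF/LEF (ATCAAAG, 3.73%), STAT (TTCCNGGAA, 1.15%), ROR (TAGGTCA, 2.61%), RBPJ (TGGGAA, 25.6%), the E-box (CACGTG, 7.15%), the CTCF motif (8.61%) and the NF-κB motif (1.63%). The motifs were not counted for overlap with each other.

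Partners and targets of MYC were compared with other genes by the regions within 10 kb of each gene body. The MYC/MAX network, which comprises MYC family members, their partner MAX and the MXD, MNT, MGA and MLX proteins that share or compete for these partners, has 14 genes in the list. At 48 h, 4 of the 14 had more gained than lost regions (19.5% of the 16619 protein-coding genes with a region) and 7 had more lost than gained (49.2% of those genes). At 72 h the counts were again 4 and 7 of 14, against 33.9% and 36.7% of all such genes. The list as a whole had 12 gained and 20 lost regions at 48 h and 16 and 19 at 72 h, of which Myc supplied 2 and 5, and 2 and 4. Over all regions, 14522 were gained and 29014 lost at 48 h, and 25550 were gained and 25526 lost at 72 h. Limiting the lists to 40624 peaks, the widest ones, gave the network 16 gained and 9 lost regions at both times, so the larger side turned. The 48 h list has no more peaks than that and stayed whole. The 48 h comparison thus lost naive peaks only, which favours gains by construction, whereas for 72 h the naive and 72 h lists were both cut. Flanks of 50 kb gave 49 gained and 39 lost regions at 72 h, where the larger side also turned.

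Single members of the network differed, and their counts per list can hide gains and losses that offset each other. Mlxipl, which encodes the glucose-responsive factor ChREBP, went from 4 regions in naive cells to 6 at 48 h and 8 at 72 h with none lost relative to naive cells. Max, the obligate partner of MYC, went from 4 regions to 2 at both times, with 1 gained and 3 lost relative to naive cells at each. Mxd1, a repressor that competes for MAX, went from 3 to 1 at both times, and Mxi1, of the same family, from 9 to 6 and 8. Mga had 5 regions in naive cells, 7 at 48 h and 4 at 72 h, and Mlxip had 4, 2 and 3.

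Among 22 genes of growth and of the nucleolus known as MYC targets, 2 had more gained than lost regions at 48 h (19.5% of all genes with a region) and 11 had more lost than gained (49.2% of those genes), a share near the background. At 72 h the counts were 3 and 6, against 33.9% and 36.7%. The target list as a whole had 13 gained and 33 lost regions at 48 h and 16 and 21 at 72 h. The counts over all regions are those given for the network. The most unequal gene at 48 h was Shmt2, an enzyme of mitochondrial one-carbon metabolism, with 8 regions in naive cells, 3 at 48 h and 5 at 72 h. Ccnd2, a G1 cyclin, had 7, 4 and 7, with 2 gained and 5 lost at 48 h and 3 gained and 3 lost at 72 h. Ncl, which encodes nucleolin, had 4, 1 and 1. Cad, the enzyme that opens pyrimidine synthesis, had 2, 4 and 5 regions, Odc1, of polyamine synthesis, 2, 2 and 4, and Srm, spermidine synthase, 2, 3 and 4. Nop56 and Nop58, of the box C/D small nucleolar ribonucleoproteins, had 4 regions in naive cells and 2 at each time. The lists were put together with earlier results of these data known and describe these genes only.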

How the data were processed

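ATAC-seq peaks of naive CD4 T cells and of Th17 cultures at 48 h and 72 h were analysed. Per the submitters' processing notes, the tools were MACS2 2.2.6, Bowtie2 2.3.4.1, deepTools and SAMtools 1.9, on GRCm38 (mm10). The notes used here give no calling threshold, filter or Tn5 shift and do not say whether a list pools both libraries. The deposited lists give peak starts and ends. The 48 h and 72 h lists also hold a score per peak, deposited by the authors with no stated scale, and the naive list holds none, and 1 line without values was left out of it.

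Peaks were merged with Python 3.11.15, and intervals were computed with SciPy 1.17.1. The region score is the highest and the width the sum of its peaks in a list. Coordinates are 1-based. Merging was tested on simulated data. Without counts per library no test could be made. The members, gene lists, motifs and intervals were chosen with earlier results of these data known. Named regions are those within 10 kb of Myc, the 5 highest scores or widest in each class and the largest cluster, and named list genes are those with the most unequal gains and losses. Other regions named were chosen after their values were seen. The result of 1 marker gene is not reported here. The alternatives tried were overlap, merging distance, score, list length, width, window edge, flank and absent peak numbers, the last chosen after seeing the data.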

Additional observations from a re-analysis of the deposited data

How the results depend on the processing

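No paired analysis was possible because the lists give no values per library, and for the same reason no replicate could be left out. Counts within 1.5 times the main value were read as unchanged, which held for 90 of 122 recomputed counts. All 16 counts of the window kept within that range when sharing needed an overlap of 0.5 of the narrower peak, when peaks up to 200 bp apart were merged and when any base in the window sufficed.

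With only the wider peaks of each list, from its median width up, 13 counts moved: gains and losses from naive cells were 21 and 20 at 48 h and 27 and 20 at 72 h, gains from 48 h to 72 h were 9, naive-only regions 20, regions at 48 h and 72 h only 18 and regions in all 3 lists 5. The interval from 250 to 500 kb then had 9 regions at 48 h and 10 at 72 h, and the Myc gene had 3 in naive cells, 2 at 48 h and 3 at 72 h. Fewer peaks enter by construction. With scores of at least 50, losses from 48 h to 72 h were 8 and regions in all 3 lists 7. With the widest 40624 peaks per list these were 8 and 9, the Myc gene had 4 naive, 4 48 h and 5 72 h regions, the MYC/MAX network had 16 gained and 9 lost regions at each time, and the targets had 14 gained and 20 lost at 48 h. That setting removed peaks from the naive and 72 h lists only, because the 48 h list has 40624. Where an absence beside an absent peak number was not counted, gains from naive cells were 19 at 48 h and 27 at 72 h and regions at 48 h and 72 h only 17, although 1 absent number stands for at most 1 peak and the 13 regions that left the latter class lie beside the same one. Flanks of 50 kb gave the network 26 gained and 43 lost regions at 48 h and 49 and 39 at 72 h, and the targets 27 and 82, and 47 and 57. The causes of these shifts were not tested further.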

Other observations

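Some neighbouring regions of the locus that nearly touched belonged to different combinations of lists. Of 21 pairs of neighbours with a gap below 1000 bp, 11 were of the same class and 10 of different classes. No such count over all regions is given here, so whether this split is unusual cannot be said. The closest pair lies inside Pvt1, where a naive-only region of 124 bp at chr15:62138818-62138941 is followed after 36 bp by the 72 h only region chr15:62138978-62139313 of 336 bp. At the Myc start, the region in all 3 lists and the one missing at 48 h are 56 bp apart, and at 713.4 kb after the start a region in all 3 lists is followed after 158 bp by a naive-only region of 236 bp, chr15:62699067-62699302.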
